A study of Mus musculus with 5 samples.

Results

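A set of 10 genes of the ATF4 and CHOP stress response was followed through 5 RNA-seq libraries of mouse E14 embryonic stem cells: Atf4, Atf3, Atf5, Ddit3, Nupr1, Trib3, Chac1, Asns, Herpud1 and Sesn2. They were taken by name, as the RefSeq transcripts of the listed symbols, and are 10 of 22267 genes in the table. Levels are FPKM (fragment numbers divided by transcript length and by the mapped fragments of the library), summed over the transcripts of a gene. Of the 10 genes, 7 had a value above 0 in every library and a mean of at least 1 FPKM. Asns had no number in 1 library, and Ddit3 and Atf5 were listed at 0 in all 5.

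The groups have 1 library each. Cells labelled as overexpressing hexokinase 2 and the M2 form of pyruvate kinase (Hk2/Pkm2-labelled cells below) were sampled in culture with leukemia inhibitory factor (LIF), after 24 hours without LIF followed by its return, and after 40 days without LIF. Normal E14 cells were sampled with LIF and after the same 24 hour treatment. The labels give the strain of all 5 as C57BL/6 and do not say whether the overexpressing cells are 1 clone. LIF is the cytokine that keeps mouse embryonic stem cells in self-renewal.

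ATF4 is a basic leucine zipper transcription factor whose protein is made when the initiation factor eIF2alpha is phosphorylated by kinases that sense amino acid shortage, unfolded protein in the endoplasmic reticulum, haem shortage or viral RNA. It is controlled largely at translation, so its transcript need not follow its activity, and protein was not measured here. Its targets include other leucine zipper factors, among them ATF3 and CHOP (encoded by Ddit3), and enzymes and transporters that restore amino acids. Many of them bear a composite C/EBP-ATF response element near the start site.

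That element is printed first. The members with a match to its strict form have the largest ratios of 40 days to LIF among the 7 members compared below. This was seen in those same values, and a link between match and ratio was not tested. Among other genes with a mean of at least 1 FPKM, 12.8% with the strict form were 2-fold higher at 40 days than with LIF. Without it 13.6% were. For 40 days over 24 hours the shares were 17.0% and 11.5%. RefSeq promoter windows of assembly GRCm38.p6, from 250 bases before to 50 bases after the start, were found for all 10 genes. The core TGATGNAA was searched on both strands. The core matched in 6 of the 10 genes, against 4.51% of the 27025 genes in the table. The strict form TGATGCAA, which is one case of the core, matched in Atf3, Chac1, Herpud1 and Nupr1, against 1.03% of genes. Their windows are given here in the direction of transcription, 5′ to 3′, with the match in capitals; all of these matches lie on the opposite strand and so read as TTGCATCA. In Herpud1 the second run of capitals is an ER stress element, described below.
Atf3, chr1:191183284-191183583, minus strand: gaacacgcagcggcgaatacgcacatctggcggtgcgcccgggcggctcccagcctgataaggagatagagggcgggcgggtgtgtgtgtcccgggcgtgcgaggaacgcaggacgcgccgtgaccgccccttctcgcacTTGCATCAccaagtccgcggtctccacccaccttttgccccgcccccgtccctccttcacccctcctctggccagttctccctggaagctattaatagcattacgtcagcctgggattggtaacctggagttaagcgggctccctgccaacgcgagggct
Chac1, chr2:119350992-119351291, plus strand: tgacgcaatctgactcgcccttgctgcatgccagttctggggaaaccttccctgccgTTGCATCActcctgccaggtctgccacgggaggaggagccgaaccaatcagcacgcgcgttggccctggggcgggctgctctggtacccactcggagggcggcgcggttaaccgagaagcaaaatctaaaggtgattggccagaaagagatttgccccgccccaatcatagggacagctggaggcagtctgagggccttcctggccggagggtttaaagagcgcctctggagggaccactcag
Herpud1, chr8:94386179-94386478, plus strand: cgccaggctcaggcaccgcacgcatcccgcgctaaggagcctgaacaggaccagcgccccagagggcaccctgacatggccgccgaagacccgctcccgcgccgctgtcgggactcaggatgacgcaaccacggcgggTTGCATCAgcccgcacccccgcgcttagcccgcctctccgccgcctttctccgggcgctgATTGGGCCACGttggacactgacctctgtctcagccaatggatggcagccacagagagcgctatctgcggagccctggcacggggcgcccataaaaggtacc
Nupr1, chr7:126625421-126625720, minus strand: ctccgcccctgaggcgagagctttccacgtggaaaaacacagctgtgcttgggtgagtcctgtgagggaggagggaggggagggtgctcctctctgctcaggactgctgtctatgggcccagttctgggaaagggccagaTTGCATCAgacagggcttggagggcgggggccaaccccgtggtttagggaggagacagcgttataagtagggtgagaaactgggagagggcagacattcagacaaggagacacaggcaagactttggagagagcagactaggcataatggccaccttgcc

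Counted from the start site, the match began at base -110 in Atf3, -110 in Nupr1, -112 in Herpud1 and -193 in Chac1. Trib3 had the variant TGATGTAA downstream of the start, beginning at base 15 on the opposite strand, and Asns had TGATGAAA on the coding strand, beginning at base -23. Atf4, Sesn2, Ddit3 and both windows of Atf5 held no core match, which says only that these letters are not in these windows. Neither the cyclic AMP response element TGACGTCA (2.03% of genes) nor the first form of the ER stress element (CCAAT and CCACG with 9 bases between, 0.137% of genes) matched in any member on either strand. The second form of the ER stress element (ATTGG and CCACG with 1 base between, 0.0444% of genes), searched after the windows had been read, matched in Herpud1, beginning at base -52 on the coding strand. A match is a string of letters and not a measured binding site.

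**Figure D1:**
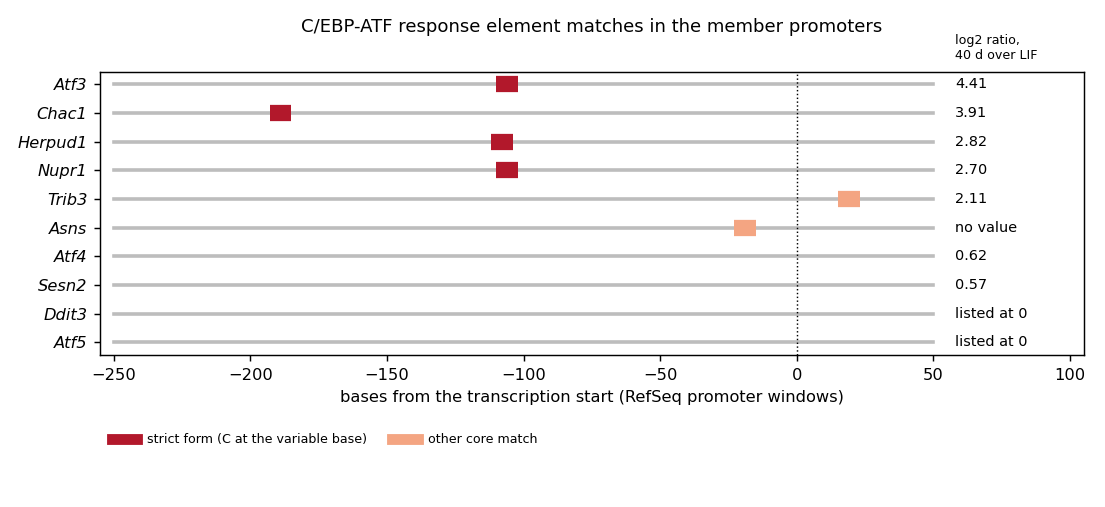
Positions of the C/EBP-ATF response element core in the promoter windows of the 10 genes, in bases from the start site, with the strict form in dark red and other core matches in light red. The numbers at the right are log2 ratios of (FPKM + 1) for 40 days over LIF in Hk2/Pkm2-labelled cells. The strict form stands in the genes with ratios of 4.41, 3.91, 2.82 and 2.70, and a link between match and ratio was not tested.

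The table gave between 10151 and 11114 transcripts at 1 FPKM or more per library. The level of 1 fragment put the depth at about 34200000 to 39900000 fragments per library. The pluripotency markers fixed for a check of the cells (Pou5f1, Sox2, Nanog, Zfp42, Esrrb, Dppa5a, Utf1 and Lin28a) were all above 1 FPKM in all 5 libraries. Endoderm markers summed to 33.3 FPKM in Hk2/Pkm2-labelled cells with LIF, 6.29 FPKM after 24 hours and 310 FPKM at 40 days, and to 7.44 and 24.4 FPKM in normal cells after 24 hours and with LIF. Hk2 itself had 98.6 FPKM in Hk2/Pkm2-labelled and 76.2 FPKM in normal cells with LIF, a ratio of 1.29, and the ratio after 24 hours was 1.19. The same ratios for Pkm, counted as a gene with its M1 and M2 forms together, were 1.11 and 0.924. Neither gene total was 2-fold higher, the M2 form was not measured on its own, and the cells are named by their label only. With 1 library per group, none of the differences below can be set against replicate error. The 95% intervals below come from fragment numbers estimated from FPKM, transcript length and this depth, and cover counting error only.

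At 40 days without LIF, 5 of the members stood far above their levels in the 4 other libraries. Atf3, Chac1, Nupr1, Herpud1 and Trib3 were 4.60-fold to 61.5-fold higher than with LIF in the same labelled cells, while Atf4 was 1.55-fold and Sesn2 1.49-fold higher. All 7 measurable members had their highest level of the 5 libraries at 40 days. In bulk RNA a change in the share of cells that carry a transcript and a change per cell cannot be told apart.

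Atf3, a stress-induced repressor and activator that pairs with other leucine zipper proteins, had 0.502, 0.289 and 30.9 FPKM in Hk2/Pkm2-labelled cells with LIF, after 24 hours and at 40 days, and 0.630 and 0.607 FPKM in normal cells after 24 hours and with LIF. The 4 low libraries held an estimated 20 to 45 fragments of Atf3 each, and the library at 40 days an estimated 2272. The ratio of 40 days to LIF was 61.5 (counting interval 45.0 to 86.4), and that of 40 days to 24 hours was 107 (69.0 to 175). Atf3 would not have reached a mean of 1 FPKM without the library at 40 days, so its passing of that filter is not independent of this difference.

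Chac1, which breaks down the antioxidant glutathione, stood at 5.75, 3.75 and 100 FPKM in Hk2/Pkm2-labelled cells with LIF, after 24 hours and at 40 days, and at 2.29 and 3.85 FPKM in normal cells after 24 hours and with LIF. It was 17.5-fold higher at 40 days than with LIF (15.7 to 19.5) and 26.8-fold higher than after 24 hours (23.4 to 30.9). Among the 8841 genes above 0 in every library, the log2 ratio of (FPKM + 1) for 40 days over LIF was 4.41 in Atf3, the 7th highest, and 3.91 in Chac1, the 11th highest. The central 95% of these 8841 genes ran from -1.56 to 2.09. Among all 9590 genes with a mean of at least 1 FPKM, which include genes listed at 0 in a library, Atf3 was the 40th and Chac1 the 56th highest, and the central 95% ran from -2.00 to 2.46.

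Nupr1, a small stress-induced chromatin protein, stood at 5.80, 2.24 and 43.1 FPKM in Hk2/Pkm2-labelled cells with LIF, after 24 hours and at 40 days, and at 1.14 and 3.50 FPKM in normal cells after 24 hours and with LIF. Its ratio of 40 days to LIF was 7.43 (6.38 to 8.69). Trib3, a pseudokinase that binds ATF4 and CHOP and damps their activity, stood at 11.6, 5.69 and 53.4 FPKM in Hk2/Pkm2-labelled cells in the same order of cultures, and at 3.07 FPKM after 24 hours and 7.95 FPKM with LIF in normal cells. Trib3 had the smallest ratio of 40 days to LIF of the 5 strongly different members, 4.60 (4.28 to 4.94). Its ratio of 40 days to 24 hours was 9.39 (8.46 to 10.4), beside 8.99 (8.26 to 9.79) for Herpud1.

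Herpud1, a membrane protein of the endoplasmic reticulum that takes part in the degradation of misfolded proteins, stood at 10.5, 8.94 and 80.4 FPKM in Hk2/Pkm2-labelled cells with LIF, after 24 hours and at 40 days, and at 7.87 and 7.08 FPKM in normal cells after 24 hours and with LIF. The 4 libraries other than that at 40 days ranged from 7.08 to 10.5 FPKM. The library at 40 days stood 7.64-fold above LIF (7.10 to 8.23). An antisense transcript, Gm15890, overlaps Herpud1 in the annotation. The library kit does not mark strand, so its reads cannot be separated from those of Herpud1.

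The regulator itself had a smaller ratio of 40 days to LIF than these 5 members. Atf4 had the highest listed FPKM of the members in every library, though Asns had no number at 40 days. In normal cells Atf4 stood at 127 FPKM after 24 hours and 136 FPKM with LIF. In Hk2/Pkm2-labelled cells it stood at 141, 93.0 and 218 FPKM with LIF, after 24 hours and at 40 days. It was 1.55-fold higher at 40 days than with LIF (1.51 to 1.59) and 2.34-fold higher than after 24 hours (2.27 to 2.42). Sesn2, a sestrin that senses leucine and restrains the growth kinase complex mTORC1, stood at 48.4, 58.3 and 72.3 FPKM in Hk2/Pkm2-labelled cells with LIF, after 24 hours and at 40 days, and at 55.3 FPKM after 24 hours and 47.3 FPKM with LIF in normal cells. Its ratio of 40 days to LIF was 1.49 (1.45 to 1.54), close to that of Atf4. An annotated gene on the same strand, Gm12981, overlaps Sesn2.

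Asns, asparagine synthetase and a standard ATF4 target, had a hyphen in place of a number at 40 days. In Hk2/Pkm2-labelled cells it had 28.1 FPKM after 24 hours and 55.9 FPKM with LIF, and in normal cells 48.6 FPKM after 24 hours and 61.5 FPKM with LIF. Ddit3, which encodes CHOP, and Atf5, a further leucine zipper factor of the response, were listed at 0 in all 5 libraries, as were 4845 of the 22267 genes. Both overlap protein-coding genes on the other strand, Ddit3 the methionyl-tRNA synthetase gene Mars1 and Atf5 the nucleoporin gene Nup62 (and Il4i1). Genes that every cell uses are also listed at 0 in single libraries here, such as Eif2s2, a subunit of eIF2, at 40 days. Nothing can thus be said of CHOP or ATF5 transcripts in these cells.

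**Figure D2:**
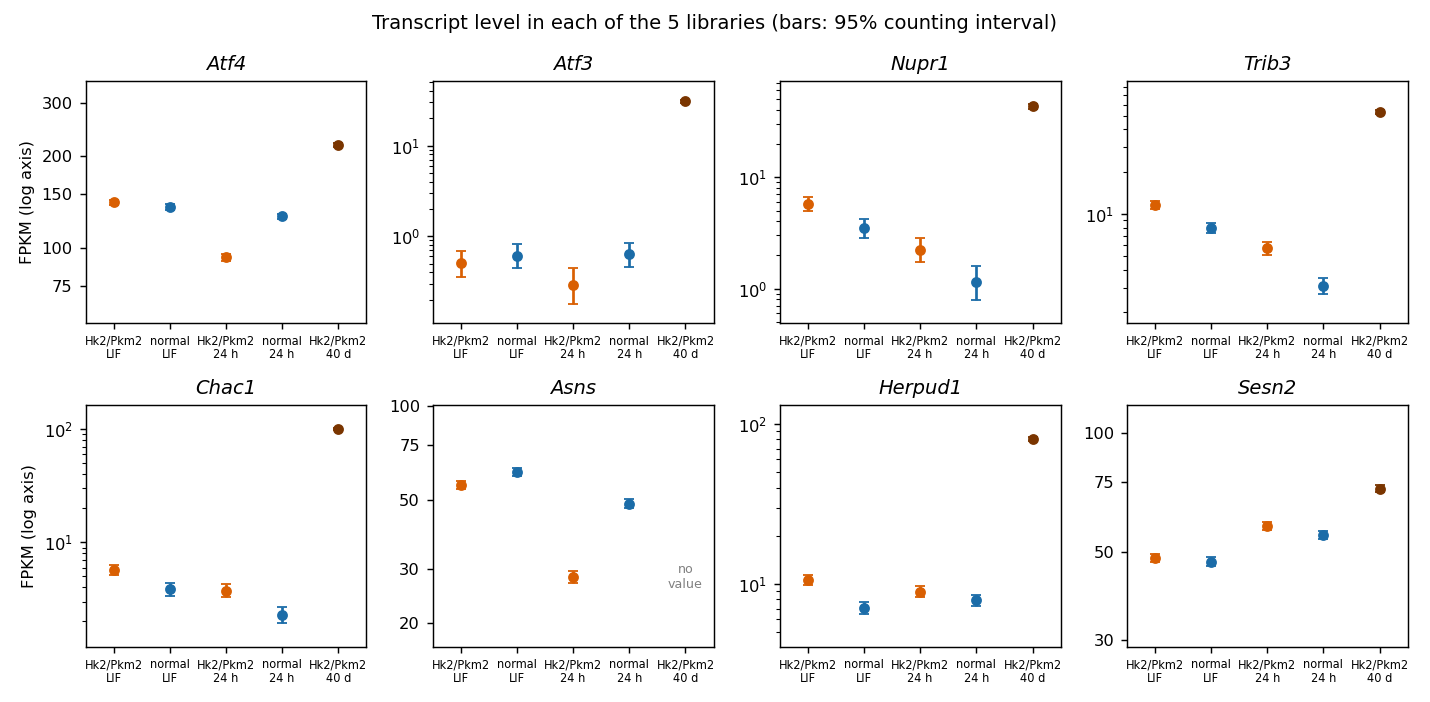
FPKM on log axes, with a range of its own for each gene, for the 8 members with values above 0; points are libraries in the order Hk2/Pkm2-labelled before normal within each culture, and bars are 95% counting intervals. The library at 40 days is highest in all 7 panels that have it, by a wide margin in Atf3, Chac1, Nupr1, Herpud1 and Trib3 (43.1 FPKM against 5.80 FPKM with LIF for Nupr1).

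By the descriptive threshold of 2-fold on log2(FPKM + 1), 5 of the 7 genes past the filter were higher at 40 days than with LIF and none lower, with a median log2 ratio of 2.70. Over all 9590 genes 14.0% were 2-fold higher and 8.31% lower, with a median of 0.076. Against the 24 hour library, a comparison that uses the same 40 day library, 6 of the 7 were higher and none lower, with a median of 3.03, where 12.1% of all genes were higher and 5.78% lower. Of all genes 2-fold different between 40 days and LIF, 62.8% were higher, a share that median-of-ratios scaling brought to 51.5% and quantile normalization to 51.8%. The first of these moved the median of all genes to -0.087, and under both scalings the same counts of members, 5 and 6, were past 2-fold. With the filter set on the 4 other libraries, a choice made after the values were seen, Atf3 dropped out and 4 of 6 genes were higher than with LIF, against 12.0% of genes.

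**Figure D3:**
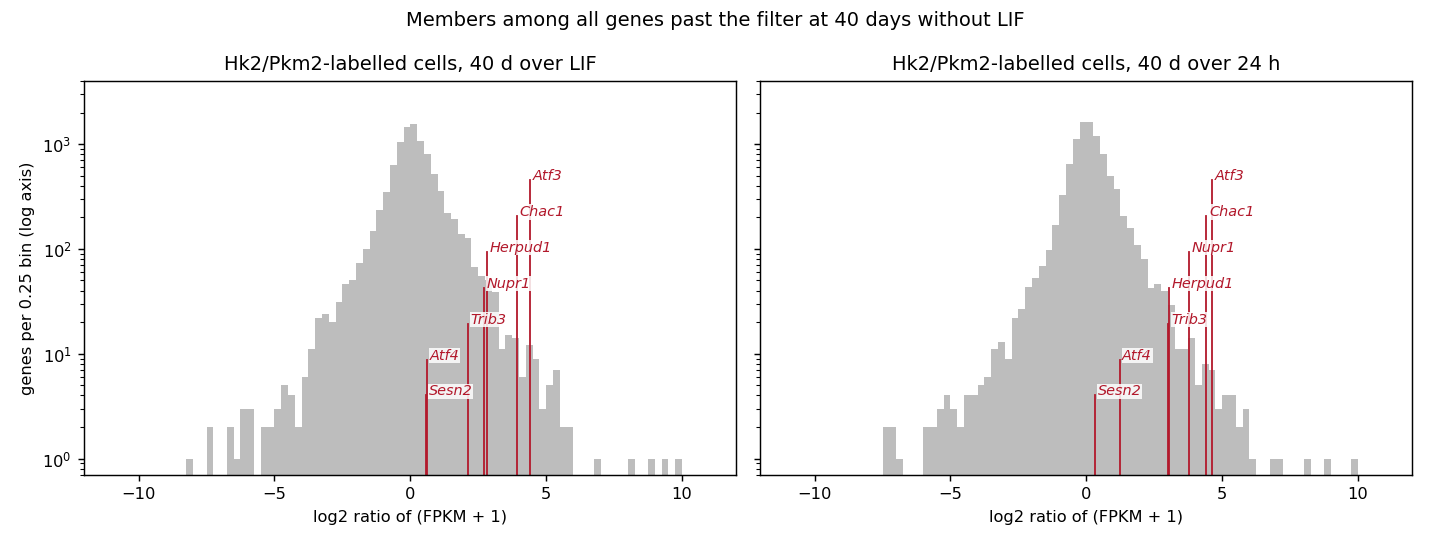
Histograms of log2 ratios of (FPKM + 1) for all 9590 genes past the filter, on a log count axis, for 40 days over LIF (left) and over 24 hours (right) in Hk2/Pkm2-labelled cells; red lines mark the 7 members past the filter at heights chosen for legibility. Atf3 (4.41 and 4.63) and Chac1 (3.91 and 4.42) stand in the right tail, and Sesn2 (0.57 and 0.31) stands near the centre.

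Endoderm markers were high in the same library: 8 of 10 were at least 1 FPKM at 40 days, with Dab2 at 52.0 and Col4a1 at 125 FPKM, while Afp and Sox17 were listed at 0. The pluripotency markers summed to 3244, 2862 and 2129 FPKM in Hk2/Pkm2-labelled cells with LIF, after 24 hours and at 40 days. Fibroblast and feeder markers summed to 181, 69.8 and 84.0 FPKM in the same order, and Col1a1 stood at 0.165 FPKM at 40 days. Of the 8 pluripotency markers, 4 were at least 2-fold lower at 40 days than with LIF and none higher. Among all genes 8.31% were lower and 14.0% higher. Zfp42 stood at 40.9 FPKM at 40 days and 278 FPKM with LIF, Nanog at 29.6 and 183 FPKM, and Esrrb at 29.0 and 139 FPKM. After 24 hours in the same cells 3 of the 8 were 2-fold lower, beside 6.07% of all genes. The part that a changed mixture of cell types has in the stress gene values was not tested.

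Other targets of ATF4 and CHOP form a list that does not include the members. Like them, it was chosen with earlier results of these data known. Of 32 past the filter, 13 were at least 2-fold higher than with LIF and none lower, with a median log2 ratio of 0.80, beside 14.0% of all genes and their median of 0.076. Stc2, a secreted stress glycoprotein, stood at 13.7 FPKM at 40 days and 0.669 FPKM with LIF, and passed the filter only through the library at 40 days. Gdf15, a stress-induced secreted factor, stood at 16.3 and 1.84 FPKM, and Slc6a9, a glycine transporter, at 13.3 and 1.64 FPKM. Further genes, named after their values were seen, were the leucine zipper partners Cebpb (12.6 FPKM at 40 days and 2.06 FPKM with LIF) and Cebpg (11.9 and 1.74 FPKM), the amino acid transporter subunit Slc3a2 (272 and 86.2 FPKM), and Mthfd2 of mitochondrial folate metabolism (153 and 57.0 FPKM). Not all ATF4 targets shared this: the serine synthesis genes Psat1 (112 and 112 FPKM) and Phgdh (17.6 and 16.2 FPKM), also named after their values were seen, stood at similar levels in both cultures. Over 24 hours, 15 of the 32 were higher and none lower, with a median of 0.82. Among all genes 12.1% were higher and 5.78% lower. Jdp2, a leucine zipper repressor, stood at 8.34 FPKM at 40 days and 0.237 FPKM after 24 hours. With the filter on the 4 other libraries, which drops Stc2, 12 of 30 were higher than with LIF, beside 12.0% of genes.

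The IRE1 and ATF6 arms of the unfolded protein response are not headed by ATF4. Of 19 of their genes past the filter, 2 were 2-fold higher at 40 days than with LIF and none lower, beside 14.0% and 8.31% of all genes, with a median of -0.04 beside 0.076 over all genes. The 2 were Derl3 (7.36 FPKM at 40 days and 0.963 FPKM with LIF) and Edem1 (8.89 and 1.84 FPKM), both of which act in the disposal of misfolded proteins. Edem1 also varied widely between the other libraries, from 1.14 to 6.39 FPKM. Dnajc3 had the next largest ratio, at 15.2 and 7.21 FPKM. Its log2 ratio of 0.98 lay just inside the threshold because of the pseudocount of 1. Hspa5, the main chaperone of the endoplasmic reticulum, stood at 118 FPKM at 40 days and 182 FPKM with LIF. Xbp1, the factor activated by IRE1, stood at 14.8 and 13.2 FPKM.

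Upstream of ATF4, 13 genes for eIF2alpha kinases, eIF2 subunits, phosphatase subunits and their regulators were past the filter. Beside 14.0% of all genes, 1 of these was 2-fold higher at 40 days than with LIF: Ppp1r15a, the stress-induced phosphatase subunit that reverses eIF2alpha phosphorylation, at 47.5 and 18.4 FPKM. The 1 that was lower was Eif2s2, through its value listed at 0. The kinases Eif2ak3 (PERK, 7.33 FPKM at 40 days and 7.15 FPKM with LIF) and Eif2ak4 (GCN2, 4.85 and 5.19 FPKM) stood at similar transcript levels, and kinase activity was not measured. Of 12 aminoacyl-tRNA synthetases, which charge tRNAs with amino acids, none was 2-fold different on log2(FPKM + 1). Their median was 0.35, beside 0.076 over all genes, of which 14.0% were higher and 8.31% lower. Lars (107 FPKM at 40 days and 53.1 FPKM with LIF), Gars (254 and 160 FPKM) and Cars (58.8 and 37.8 FPKM) had the largest ratios. The log2 ratio of Lars, 0.99, lay just inside the threshold because of the pseudocount of 1.

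Sesn2 and Atf3 can also be induced by the tumour suppressor p53. Of 15 other p53 targets, 5 were 2-fold higher at 40 days than with LIF and none lower, beside 14.0% and 8.31% of all genes, with a median of 0.79; Pmaip1, a cell death gene, stood at 13.2 and 0.0791 FPKM. Pmaip1 passed the filter only through the library at 40 days. With the filter on the 4 other libraries, 4 of 14 were higher, beside 12.0% of all genes. Of 13 genes of amino acid sensing by mTORC1, 2 were higher, the sestrin Sesn3 (5.71 FPKM at 40 days and 0.775 FPKM with LIF) and Mios (8.74 and 2.44 FPKM), a share near that of all genes, and the median was 0.02. Sesn1, the sestrin most tied to p53, stood at 2.93 and 4.63 FPKM.

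**Figure D4:**
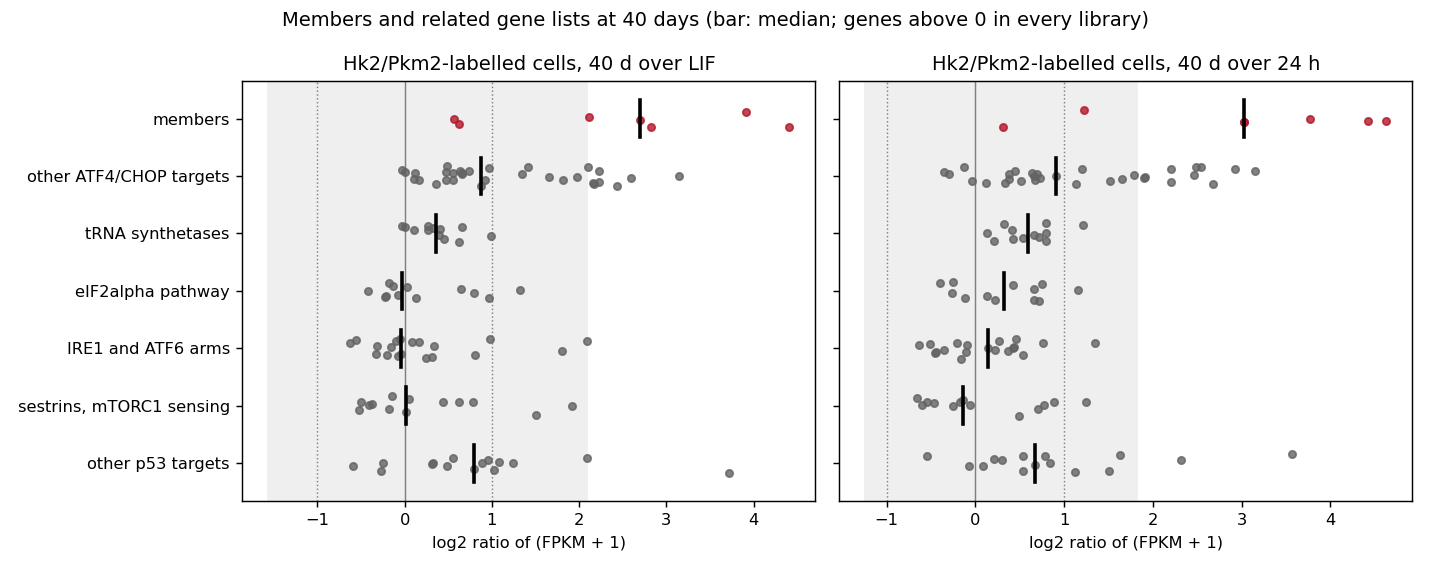
Log2 ratios of (FPKM + 1) for 40 days over LIF (left) and over 24 hours (right) in Hk2/Pkm2-labelled cells; each point is a gene above 0 in every library, black bars are medians of the plotted genes and the grey band is the central 95% of such genes. Other ATF4 and CHOP targets reach ratios such as 2.60 for Gdf15, and the median of the IRE1 and ATF6 genes is near 0.

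Between Hk2/Pkm2-labelled and normal cells the members differed far less. With LIF none of the 7 genes past the filter was 2-fold different in either direction on log2(FPKM + 1). Among all genes 4.11% were higher and 5.32% lower. After 24 hours none of the 7 was either, where 4.19% of all genes were higher and 5.18% lower. Chac1, Trib3 and Nupr1 were nonetheless above normal cells in both cultures, which share no library. Nupr1 was 1.66-fold higher with LIF (1.30 to 2.12) and 1.97-fold after 24 hours (1.28 to 3.08). Trib3 was 1.46-fold higher with LIF (1.32 to 1.62) and 1.85-fold after 24 hours (1.57 to 2.19). Chac1 was 1.49-fold higher with LIF (1.27 to 1.77) and 1.64-fold after 24 hours (1.31 to 2.05). All of these intervals lie above 1, and all of these log2 ratios, 0.48 to 0.72, lie inside the central 95% of genes above 0 in every library, for the same pair of libraries.

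Herpud1 was 1.49-fold higher with LIF (1.33 to 1.66) and 1.14-fold after 24 hours (1.01 to 1.28). Atf4 did not share this direction after 24 hours, when it stood at 93.0 FPKM in Hk2/Pkm2-labelled and 127 FPKM in normal cells, a ratio of 0.735 (0.710 to 0.761). Asns had a ratio of 0.579 (0.547 to 0.612) in the same pair. Atf3, under 1 FPKM in each of these libraries, had ratios of 0.828 with LIF (0.527 to 1.30) and 0.459 after 24 hours (0.257 to 0.794). On log2(FPKM + 1) these were -0.10 and -0.34, so Atf3 was not called. Sesn2 was within 1.05-fold of normal cells in both cultures. For other p53 targets the median of log2 ratios of labelled to normal cells was -0.55 with LIF and -0.71 after 24 hours. Over all genes the medians were -0.044 and -0.021. With LIF 6 of 15 were 2-fold lower and none higher, and after 24 hours 5 were lower and 1 higher. The shares over all genes are those given for the members above. Perp stood at 11.7 and 34.0 FPKM with LIF. The 1 higher gene, Ei24, stood at 51.5 and 19.4 FPKM after 24 hours.

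After 24 hours without LIF followed by its return, Trib3 and Nupr1 were lower in both cell types. Nupr1 had log2 ratios of -1.07 in Hk2/Pkm2-labelled and -1.08 in normal cells, and Trib3 of -0.92 and -1.14. Chac1 was lower by less, at -0.51 and -0.56. In normal cells 2 of the 7 genes past the filter, Trib3 and Nupr1, were at least 2-fold lower, where 5.51% of all genes were lower and 4.62% higher. In Hk2/Pkm2-labelled cells 1 of 7, Nupr1, was, where 6.07% were lower and 5.79% higher, and a pseudocount of 0.1 in place of 1 added Trib3 at -1.02. Asns after 24 hours stood at 0.503 times its level with LIF (0.477 to 0.531) in Hk2/Pkm2-labelled and 0.790 times (0.756 to 0.826) in normal cells. Atf4 stood at 0.660 times (0.638 to 0.682) in Hk2/Pkm2-labelled and 0.930 times (0.902 to 0.959) in normal cells. Whether the cell types differ in this was not tested. Sesn2 stood above its level with LIF in both, at 1.20-fold (1.16 to 1.25) and 1.17-fold (1.13 to 1.21). Other ATF4 and CHOP targets had medians of -0.13 and -0.16, beside 0.004 and -0.005 over all genes. In Hk2/Pkm2-labelled cells 1 of the 32 was 2-fold higher, the cell death gene Bcl2l11 (11.1 FPKM after 24 hours and 4.37 FPKM with LIF), and none lower. In normal cells 1 was higher, Map1lc3b, which was listed at 0 with LIF, and 2 were lower, Phgdh (2.81 FPKM after 24 hours and 9.16 FPKM with LIF) and Jdp2 (0.402 and 2.35 FPKM). The shares over all genes are those given for the members above.

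**Figure D5:**
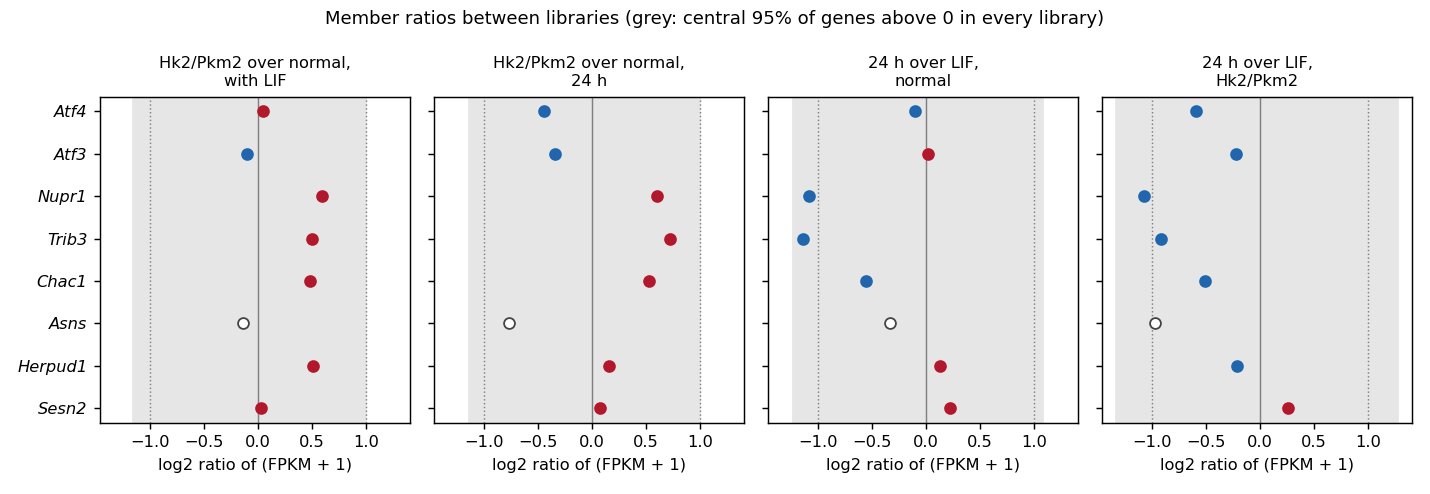
Log2 ratios of (FPKM + 1) for 8 members in 4 library pairs, red above 0 and blue below it; Asns is drawn open because it lacks a value at 40 days. Dotted lines mark 2-fold and the grey band is the central 95% of genes above 0 in every library; Nupr1, Trib3 and Chac1 lie right of 0 in both cell type panels and left of 0 in both withdrawal panels.

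Limma, fitted with cell type and culture as factors to the 4 libraries other than that at 40 days, put the cell type difference at 0.61 ± 0.15 for Trib3, 0.60 ± 0.16 for Nupr1 and 0.50 ± 0.16 for Chac1 on the log2 scale (SE, 4 libraries), with limma adjusted p values of 0.52, 0.52 and 0.524. The withdrawal difference was -1.07 ± 0.16 for Nupr1 and -1.03 ± 0.15 for Trib3, both with a limma adjusted p of 0.345. No gene of the 9590 passed an adjusted p of 0.05 for cell type (0% called, 918 at an unadjusted p under 0.05) or for withdrawal (0% called, 1154 at an unadjusted p under 0.05). The fit has 1 residual degree of freedom, with which few differences of any size could pass. A p that misses the threshold thus does not show that the levels were alike. The residual is how far the cell type difference varied between cultures, mixed with noise, so the SE does not measure spread between replicates.

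The order of the 5 libraries was the same in Chac1, Trib3 and Nupr1: 40 days, then Hk2/Pkm2-labelled with LIF, normal with LIF, Hk2/Pkm2-labelled after 24 hours and normal after 24 hours. For Chac1 the middle neighbours, 3.85 FPKM (3.37 to 4.37) in normal cells with LIF and 3.75 FPKM (3.26 to 4.29) in Hk2/Pkm2-labelled cells after 24 hours, overlap within counting error. For Atf3 the 4 libraries below 1 FPKM have overlapping intervals except for Hk2/Pkm2-labelled cells after 24 hours (0.177 to 0.447) against normal cells after 24 hours (0.460 to 0.843). Atf4, Herpud1 and Sesn2 each had an order of their own below the library at 40 days.

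Over the 5 libraries, the genes whose centred log2(FPKM + 1) profile lay nearest to the median profile of the 7 members past the filter, by Euclidean distance, were Flrt3 (0.25), Gdf15 (0.32), Gata6 (0.39), Adm2 (0.42) and Dkk1 (0.43). Flrt3, a membrane adhesion protein, stood at 1.57, 0.744 and 13.8 FPKM in Hk2/Pkm2-labelled cells with LIF, after 24 hours and at 40 days, and Gata6, an endoderm transcription factor, at 0.248, 0.177 and 7.88 FPKM. The members themselves lay at distances from 0.45 for Herpud1 to 2.38 for Sesn2. Gata6, Adm2 and Dkk1 were under 1 FPKM in every library other than that at 40 days, so their likeness rests on that library.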

How the data were processed

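RNA-seq levels of 10 named genes were compared between 5 libraries of mouse E14 cells, 1 per group. The deposited table gives FPKM per RefSeq transcript; the submitters' processing notes name TopHat2 2.0.7 and Cufflinks 2.0.2, with the mm9 build. The sources used here do not say how the authors treated fragments that map to several places. FPKM are scaled for length and depth and are not counts, so no count model was run. The members and lists were chosen with earlier results of these data known.

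Symbols for 28066 of the 28698 transcripts came from RefSeq (GRCm38.p6), by accession. The 337 genes with a hyphen in any library were left out of counts over all genes, and a mean of at least 1 FPKM over 5 libraries left 9590. Log2 ratios are differences of log2(FPKM + 1), which understate the change of low genes. Fold values and ratios printed with counting intervals are plain quotients of FPKM, with no pseudocount. The 2-fold threshold was set on log2(FPKM + 1) and is a description, not a test. Limma 3.58.1 (R 4.3.3) was run on 4 libraries with trend and Benjamini-Hochberg adjustment, and was checked on simulated data. Fragments were estimated from the 1-fragment level of single-transcript genes with GENCODE vM1 lengths, and exact Poisson and binomial 95% intervals were taken from them. All members were named, and in each list up to 3 genes with the largest ratios in a comparison. Other names were chosen outside this rule, and not all of them are marked so where they appear. Alternatives were another pseudocount, no filter, 2 scalings, genes above 0 only, the highest transcript, no trend and a filter on 4 libraries. Nothing says that the libraries come from separate cultures. In mm9, Atf3 lies at chr1:192994175-193007219, Atf4 at chr15:80085614-80087970, Chac1 at chr2:119176965-119180117, Trib3 at chr2:152163158-152169768, Herpud1 at chr8:96910338-96919277 Nupr1 at chr7:133766763-133770524, Sesn2 at chr4:132047947-132066416 and Asns at chr6:7625169-7643254, all protein-coding (GENCODE vM1).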

Additional observations from a re-analysis of the deposited data

Results flagged for a closer look

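Atf4 was marked because its difference between Hk2/Pkm2-labelled and normal cells ran in opposite directions in the 2 cultures. It stood at 141 and 136 FPKM with LIF, a ratio of 1.04 (counting interval 1.01 to 1.07), and at 93.0 and 127 FPKM after 24 hours, a ratio of 0.735 (0.710 to 0.761). The log2 ratio after 24 hours minus that with LIF was -0.49. The difference was not tested, since each value rests on 1 library per group.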

How the results depend on the processing

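The 2-fold counts of members kept their size under both scalings in all 6 comparisons, and a pseudocount of 0.1 added 1 gene in 1 comparison. Leaving out the filter or the genes listed at 0 could not change these counts, which were taken over the same 7 genes. Counts over all genes changed by more than 1.5 times when only genes above 0 in every library were used: 541 genes were then 2-fold different between cell types with LIF, 550 between cell types after 24 hours and 618 for withdrawal in normal cells. Without the filter the members' median for 40 days over LIF was 2.11, since Ddit3 and Atf5, both listed at 0, then enter. With a pseudocount of 0.1 the log2 ratio of Atf3 at 40 days was 5.69 over LIF and 6.31 over 24 hours. Limma, run under the other pseudocount, no filter, both scalings, genes above 0 only and no trend, called 0 genes each time, which with 1 residual degree of freedom says nothing about stability. No paired analysis was possible because every group has 1 library, so that no replicate number is left as a block beside the factors cell type and culture of the limma fit. No library could be left out for the same reason.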

Other observations

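Some other leucine zipper partners of ATF4 and CHOP had higher levels at 40 days than with LIF in Hk2/Pkm2-labelled cells. Of 15 past the filter, 7 were at least 2-fold higher than with LIF and 1 lower, each including 1 gene listed at 0 in a library, with a median log2 ratio of 0.95, beside 14.0% higher and 8.31% lower among all genes. With the filter on the 4 other libraries, which drops Cebpd, 6 of 14 were higher and 1 lower. Among all genes under that filter 12.0% were higher, and 811 of 9329 were lower. Both counts of higher genes in this list include Cebpz (log2 ratio 1.56), which carries the C/EBP name but is not a leucine zipper protein. Junb, with a log2 ratio of -0.60, and Atf6b, with -0.43, lay below 0. Jun, the AP-1 subunit that pairs with ATF3, stood at 16.3 FPKM at 40 days and 1.33 FPKM with LIF. Cebpb and Cebpg, already given among the ATF4 and CHOP targets, are in this list too. With LIF, Jun had 1.33 FPKM in Hk2/Pkm2-labelled and 3.92 FPKM in normal cells. After 24 hours, it had 1.55 FPKM in Hk2/Pkm2-labelled and 5.15 FPKM in normal cells.

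The strict response element was also searched outside the members. Of 47 other genes past the filter with TGATGCAA in the promoter window, 6 (12.8%) were at least 2-fold higher than with LIF, against 1047 of 7684 genes without it (13.6%), and the medians were 0.19 and 0.08. For 40 days over 24 hours the shares of higher genes were 17.0% with the element and 11.5% without it. Among genes above 0 in every library they were 14.3% and 11.9% over LIF, and 16.7% and 9.94% over 24 hours. For the core TGATGNAA they were 17.7% and 13.5% over LIF among genes past the filter. None of these differences was tested. Among the 6 were Slc1a4, a neutral amino acid transporter, at 25.4 FPKM at 40 days and 2.32 FPKM with LIF, and Gadd45g, a stress-induced gene, at 13.0 and 0.480 FPKM. Gadd45g had already reached 14.0 FPKM after 24 hours. These names were chosen after their values were seen.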
